A study of Mus musculus with 10 samples.

Results

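The respiratory chain and ATP synthase of the mitochondrial inner membrane were described here through the transcripts of 47 nuclear genes, out of 40501 gene identifiers counted. The members were the protein-coding genes whose symbols begin with Uqcr, with Cox and a digit from 4 to 8, or with Atp5, together with Sdha to Sdhd, Cyc1 and Cycs. Cox7a1 and Cox8b, isoforms typical of brown fat and muscle, were left out by this rule. The rule itself reads only symbols and annotation. Complex II had 4 members, complex III had 9, cytochrome c had 1, complex IV had 16 and complex V had 17. Atp5s, the coupling factor B protein, and Cox7a2l, a factor linked to the association of complexes III and IV, are counted because of their symbols. They are not core subunits.

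RNA was sequenced from inguinal white adipose tissue, the subcutaneous fat pad of the groin, of male chow-fed C57/BL6J mice. Control mice carried no Cre (5 libraries, replicates 2, 3, 5, 7 and 8), and PexRAP-AKO mice carried Cre with PexRAP deleted in adipose tissue (5 libraries, replicates 1, 2, 3, 5 and 6). PexRAP, also named ADHAPR, is a peroxisomal reductase of ether lipid synthesis encoded by Dhrs7b. The promoter that drives Cre is not given in the sources used here, nor is the floxed allele status of the Control mice. The labels give 8 weeks both as the age and as the time on chow, so the age at harvest is uncertain for both groups. The labels do not say that each library came from its own animal, so p-values measure the spread between these libraries, which may be partly technical.

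Electrons from succinate enter the chain through complex II, which is also an enzyme of the citric acid cycle. Complex III passes electrons from ubiquinol to cytochrome c, complex IV passes them from cytochrome c to oxygen, and complex V uses the proton gradient that complexes III and IV help to build to make ATP. Most subunits of complexes III to V and all subunits of complex II are encoded in the nucleus, while the catalytic core of complex IV and some subunits of III and V are encoded by mitochondrial DNA. In adipose tissue, brown and beige adipocytes are rich in mitochondria and carry much more of the respiratory chain than white adipocytes do.

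Library totals ran from 11274865 to 19881168 counts. Levels are given as CPM, the usual per-library share of counts after scaling for library composition, always in the order Control 2, 3, 5, 7 and 8 and PexRAP-AKO 1, 2, 3, 5 and 6. Dhrs7b stood at 95.8, 61.2, 85.9, 86.0 and 83.2 CPM in Control and at 22.8, 19.1, 18.03, 21.8 and 17.9 CPM in PexRAP-AKO, without overlap. Its log2 fold change was -2.05 (SE 0.12, edgeR adjusted p = 1.54e-05). White adipocyte markers, the check of the tissue label, summed to 29950.0 to 39990.0 CPM in Control and to 28780.0 to 37650.0 CPM in PexRAP-AKO.

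Transcripts of complexes II to V stood higher in PexRAP-AKO than in Control in most members, with a median of 1.27-fold, but no member passed edgeR's test over all genes. Of the 47 members, 44 had enough counts to be tested. None of the 44 was called at an adjusted p under 0.05, where 0.101% of the 14913 genes tested were called (15 genes) and 0.0939% were called higher, and the lowest adjusted p of a member was 0.140, for Atp5mpl. At an unadjusted p under 0.05, 34 of the 44 (77.3%) stood higher in PexRAP-AKO and 0 lower, where 9.01% of all genes tested stood higher and 6.44% lower. A positive log2 fold change was found for 41 members, against 49.8% of all genes. The median log2 fold change was 0.34 over the members, against -0.00065 over all genes. DESeq2, run on the same counts as an alternative, called 9 members higher at an adjusted p under 0.05, where 2.07% of all genes were called higher. These were Uqcr10, Uqcrh and Uqcrq of complex III, Cox6b1, Cox6c, Cox7b and Cox8a of complex IV, and Atp5j2 and Atp5mpl of complex V. DESeq2 gave no adjusted p for 6 members. In whole tissue, fewer cells of a type and less RNA per cell cannot be told apart, for any of these values.

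**Figure D1:**
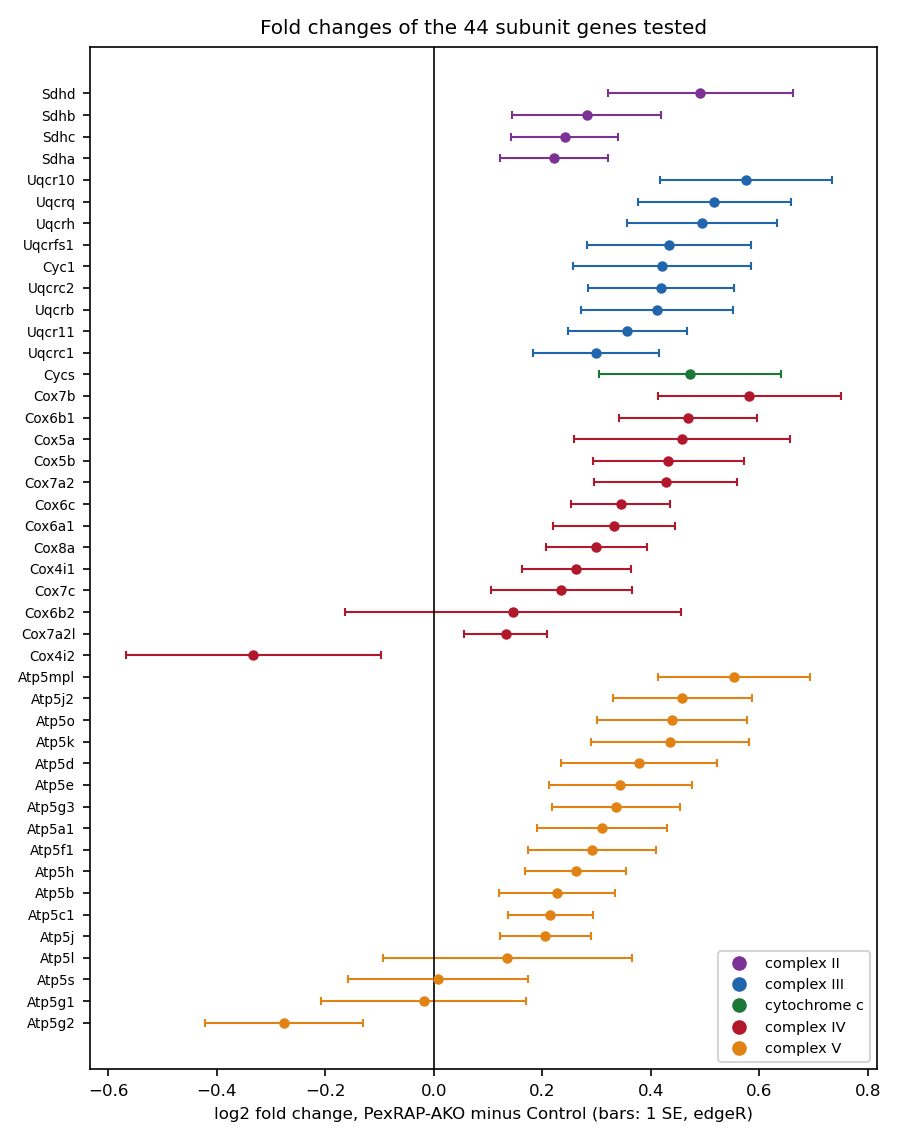
Log2 fold change of PexRAP-AKO against Control on the x axis for each of the 44 tested genes on the y axis, coloured by complex, with bars of 1 standard error from edgeR. Of the 44 points, 41 lie right of 0, and those of complex III are all between 0.30 and 0.58.

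The subunit level varied between libraries of the same group. Control 8 was the lowest of the 10 libraries in 37 of the 44 members. PexRAP-AKO 2 was the highest in 19 members and PexRAP-AKO 5 in 18. In markers of other cells, PexRAP-AKO 6 stood apart. Its mean log2 CPM over the tested markers of the T and B cell list was 3.81, against 0.0753 to 1.35 in the rest of its group. For Cdh1, the only mammary and skin epithelium marker tested, its log2 CPM was 3.42, against -1.11 to -0.12 in the rest of its group. Control 8 was the highest Control in the T and B cell list, at 2.14. With both of these libraries left out, 29 members stood higher at an unadjusted p under 0.05, where 7.13% of all genes did, with a median of 0.30. Within Control, replicate 3 was the highest library in 26 members and replicate 5 in 12, while within PexRAP-AKO replicate 1 was the lowest in 18 and replicate 6 in 17. Over the 44 members, Control libraries had a mean log2 CPM of 6.45 ± 0.20 and PexRAP-AKO libraries one of 6.77 ± 0.12 (SD, n = 5 each). Its ranges overlapped, since Control 3 at 6.665 lay above PexRAP-AKO 1 at 6.647 and PexRAP-AKO 6 at 6.656. Without Control 8, 24 members stood higher at an unadjusted p under 0.05, where 6.54% of all genes did, and the median log2 fold change over the 44 was 0.28. Without PexRAP-AKO 2 the count was 23, where 8.00% of all genes stood higher.

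**Figure D2:**
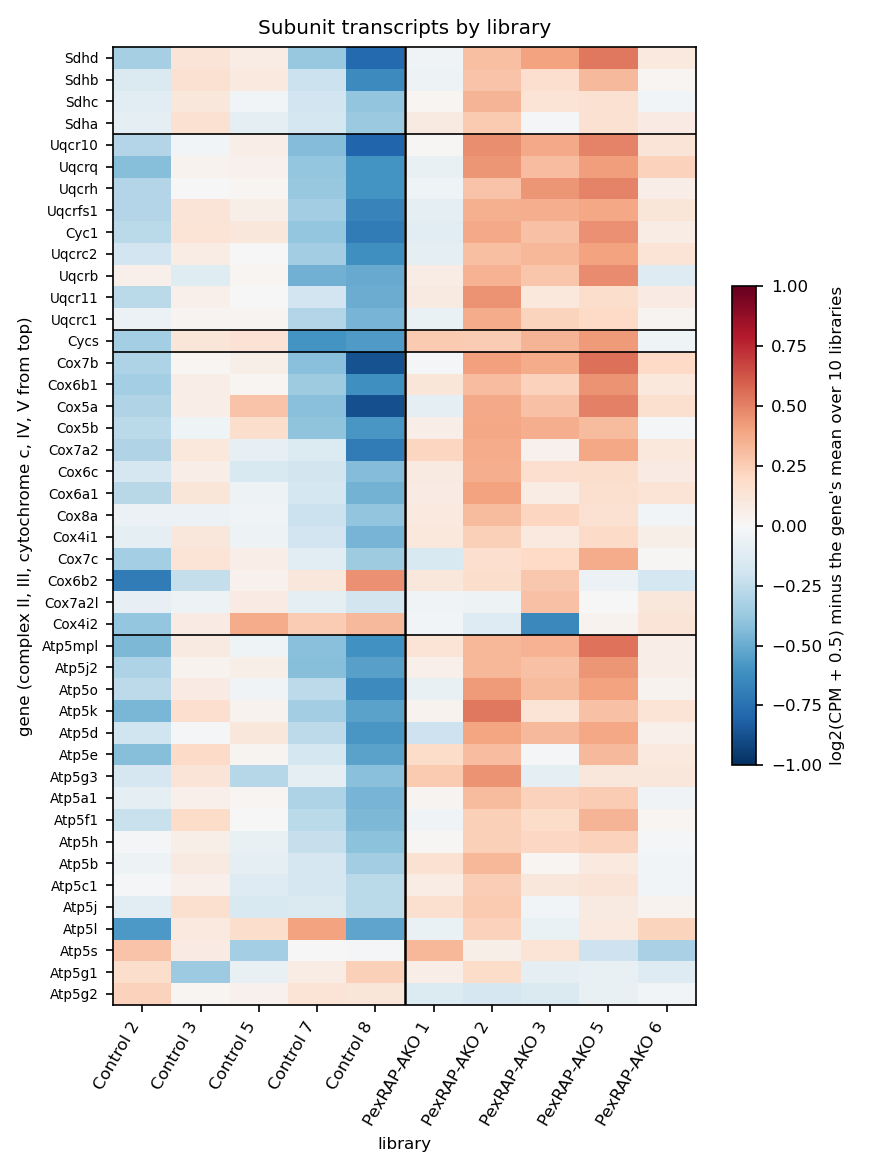
Level of each tested gene (y axis, ordered by complex and fold change) in each of the 10 libraries (x axis), as log2(CPM + 0.5) minus that gene's mean over the libraries. Control 8 is the bluest column in most rows, PexRAP-AKO 2 and 5 are the reddest, and the low-abundance genes Cox6b2, Cox4i2, Atp5l, Atp5s, Atp5g1 and Atp5g2 do not share this pattern.

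Markers of brown adipocytes and of skeletal muscle also differed between the libraries. Of 13 brown adipocyte markers, all detected, 12 had a positive log2 fold change in PexRAP-AKO, with a median of 0.87. None was called by edgeR. At an unadjusted p under 0.05, 3 stood higher and 1 lower, where 9.01% of all genes tested stood higher and 6.44% lower. The lower one, Prdm16, had the smallest p of the list (log2 fold change -0.31, SE 0.11, edgeR adjusted p = 0.214). The summed level of the 13 markers ran from 348.5 to 2519 CPM in Control and from 702.7 to 3236 CPM in PexRAP-AKO. Ucp1, the uncoupling protein that defines thermogenic fat, stood at 319, 381, 1159, 40.6 and 28.6 CPM in Control and at 94.2, 519, 1603, 1371 and 608 CPM in PexRAP-AKO. The mean log2 CPM of the brown list was 5.43, 5.71, 6.61, 4.13 and 3.84 in Control and 4.91, 6.196, 6.87, 6.97 and 6.13 in PexRAP-AKO, so that Control 8 was lowest in it as well. With that mean as a covariate, 14 of the 44 members stood higher at an unadjusted p under 0.05, where 5.14% of all genes did, and the median log2 fold change of the members was 0.19. A positive log2 fold change was then found for 42 members. That list holds Cox7a1 and Cox8b, which belong to complex IV, and Ppargc1a, which is also among the regulators described further on. With these 3 removed from the score, a choice made after seeing the data, 16 members stood higher, where 5.40% of all genes did, and the median was 0.20.

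Skeletal muscle transcripts differed in the other direction. All 12 tested markers of 14 had a negative log2 fold change, with a median of -2.49. At an unadjusted p under 0.05, 6 stood lower, where 6.44% of all genes did. None was called by edgeR. Their summed level ran from 52.97 to 1460 CPM in Control and from 54.16 to 164.8 CPM in PexRAP-AKO. No marker was at 0 in every library. The mean log2 CPM of the 12 tested markers was 6.03 in Control 8, 4.82 in Control 2 and 4.46 in Control 5, and between 0.33 and 3.28 in PexRAP-AKO. With it as a covariate, 24 members stood higher at an unadjusted p under 0.05, where 7.46% of all genes did, and the median was 0.25. With Control 8 and 2, the Controls highest in it, left out, 15 did, where 4.49% of all genes did, and the median was 0.24. Among the other cell type lists, none with a call in edgeR, 6 of 6 endothelial markers were negative (median -0.21, summed level 635.9 to 797.5 CPM in Control and 470.3 to 651.2 CPM in PexRAP-AKO). All 7 tested T and B cell markers were positive (median 0.996, summed level 7.401 to 43.2 CPM in Control and 8.00 to 108 CPM in PexRAP-AKO, the highest being PexRAP-AKO 6), as were 6 of 6 macrophage markers (median 0.17), and fibroblast and progenitor markers had a median of 0.05. Of 6 mammary and skin epithelium markers 1 was tested, and their summed level was 1.11 to 8.30 CPM in Control and 0.324 to 47.4 CPM in PexRAP-AKO, again highest in replicate 6. The part of these cell types in the subunit differences was not tested beyond these values.

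**Figure D3:**
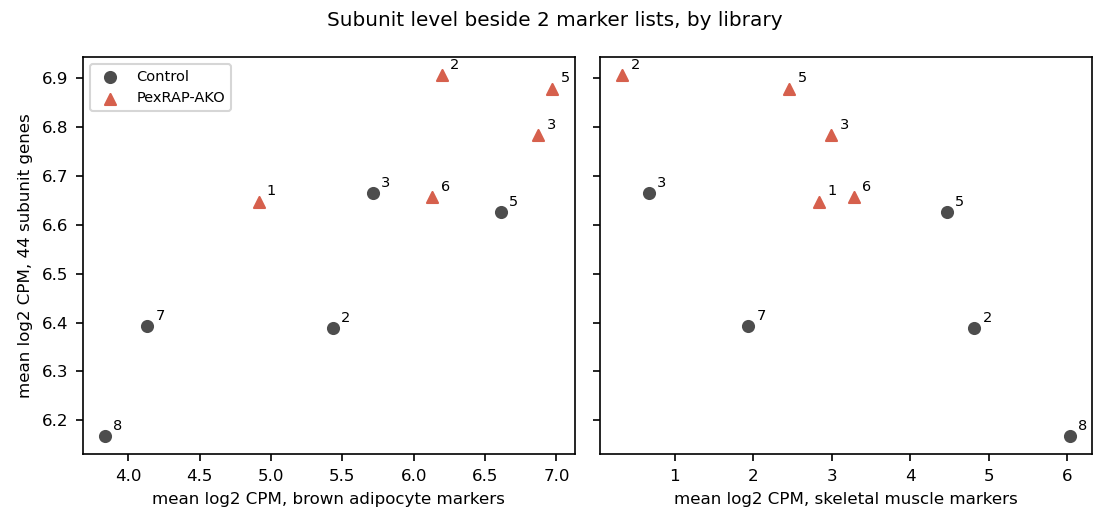
Mean log2 CPM of the 44 subunit genes (y axis) against the mean log2 CPM of the brown adipocyte markers (left) and of the skeletal muscle markers (right), 1 point per library, labelled by replicate. Control 8 has the lowest subunit level, 6.17, with the lowest brown value, 3.84, and the highest muscle value, 6.03.

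Promoter sequence gave a view of the members apart from their counts. RefSeq windows from 250 bases before to 50 bases after the start (GRCm38.p6) matched 35 of the 47 members by Entrez gene identifier, in 38 windows. These were compared with all 32851 windows. Both strands were searched for exact letters. The core site of NRF1, which is GCATGCGC with a further GC before it, for a transcription factor known to act on respiratory chain genes, was in 4 member windows (10.5%) and in 0.971% of all windows. GCATGCGC alone, which the core contains, was in 8 (21.1%) against 2.71%. CCGGAAGT, an ETS site of the kind that GABPA binds, was in 4 (10.5%) against 3.89%. TCAAGGTCA, an extended ERR site of the kind that estrogen-related receptors bind, was in 2 (5.26%) against 0.423%. AAGATGGC, a short form of the YY1 site, was in 3 (7.89%) against 2.75%, and the same letters followed by GGC were in 0 windows against 0.633%. Among the 21262 windows of protein-coding genes alone, the shares were 1.33% for the NRF1 core, 3.51% for its short form, 5.15% for ETS, 0.334% for ERR, 0.889% for the longer YY1 site and 3.05% for its short form. A match describes letters in a window and shows no binding. Upstream of the gene lie matches of Cox6a1, Cycs, Uqcr11, Atp5g3, Atp5l and Uqcrh. For the first 4 of these members, the surrounding bases are given on the gene's own strand, 5′ to 3′, with the match in capitals. They cover chr5:115349081-115349150 for Cox6a1, chr6:50566592-50566659 for Cycs, chr10:80406850-80406917 for Uqcr11 and chr2:73911340-73911408 for Atp5g3, all on the minus strand.
Cox6a1, NRF1 core: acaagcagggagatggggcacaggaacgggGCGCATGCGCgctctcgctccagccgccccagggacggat
Cycs, NRF1 shorter form: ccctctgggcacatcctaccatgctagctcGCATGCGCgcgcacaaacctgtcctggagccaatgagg
Uqcr11, ETS: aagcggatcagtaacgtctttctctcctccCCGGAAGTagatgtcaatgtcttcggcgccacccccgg
Atp5g3, ERR on the other strand: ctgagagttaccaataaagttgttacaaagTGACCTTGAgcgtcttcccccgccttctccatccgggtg
The last base of the capitals lies 153 bases upstream of the start site in Cox6a1, 53 in Cycs, 59 in Uqcr11 and 44 in Atp5g3. The log2 fold changes of these 4 genes were 0.33, 0.47, 0.36 and 0.34. Those of Atp5l and Uqcrh, whose bases are not shown, were 0.14 and 0.49. Atp5g2, which also has the NRF1 core in its window, had -0.28. The other members with a match, given further on, had positive values. So did most members in general, 41 of the 44 tested, and members with and without a match were not compared.

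Complex II, succinate dehydrogenase, stood higher in PexRAP-AKO in each of its 4 members, 3 of them at an unadjusted p under 0.05, with a median log2 fold change of 0.26. The mean log2 CPM over the complex in Control was 8.10 ± 0.26, and that in PexRAP-AKO 8.42 ± 0.14 (SD, n = 5 each). Sdha, the flavoprotein that oxidises succinate, was at 702, 832, 706, 665 and 580.1 CPM in Control and at 798, 896, 743, 833 and 792 CPM in PexRAP-AKO. Its log2 fold change was 0.22 (SE 0.10, edgeR adjusted p = 0.315), and Control 3 lay within the PexRAP-AKO range. Sdhb, the iron-sulfur subunit, was at 242, 298, 287, 231 and 173 CPM and at 259, 328, 302, 336 and 272 CPM. It was the member of this complex that missed the unadjusted threshold (log2 fold change 0.28, SE 0.14, unadjusted p = 0.0625, edgeR adjusted p = 0.351). Sdhc, which with Sdhd anchors the enzyme in the membrane and forms the ubiquinone site, was at 200.3, 234, 212, 189 and 164 CPM and at 219, 273, 237, 240.0 and 212 CPM (log2 fold change 0.24, SE 0.10, edgeR adjusted p = 0.274). Sdhd (chromosome 9, 50596357 to 50603812, GRCm38) was at 160.0, 220.3, 213, 155 and 118 CPM and at 196, 248, 266, 291 and 215 CPM. Its log2 fold change of 0.49 (SE 0.17, edgeR adjusted p = 0.218) had the highest value in the complex, although its groups overlapped through Control 3 and 5.

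Complex III, the cytochrome bc1 complex, stood higher in PexRAP-AKO in 9 of 9 members at an unadjusted p under 0.05, with log2 fold changes from 0.30 to 0.58 and a median of 0.42. None passed over all genes in edgeR, and 3 passed in DESeq2. Control had a mean log2 CPM of 7.27 ± 0.27 over the complex and PexRAP-AKO one of 7.72 ± 0.19 (SD, n = 5 each). The 4 small subunits named next, which are without redox centres, had the lowest p-values of the complex. Uqcr10 (chromosome 11, 4701973 to 4704342, GRCm38) was at 204, 247, 262, 186 and 144 CPM in Control and at 253, 347, 327, 354 and 274 CPM in PexRAP-AKO. All but PexRAP-AKO 1 lay above the highest Control (log2 fold change 0.58, SE 0.16, edgeR adjusted p = 0.159). Uqcrq was at 57.1, 78.6, 79.1, 58.4 and 50.5 CPM and at 72.6, 104, 95.1, 103 and 89.8 CPM, again with PexRAP-AKO 1 alone among the Controls (log2 fold change 0.52, SE 0.14, edgeR adjusted p = 0.159). Uqcrh, the acidic hinge protein beside cytochrome c1, was at 156, 191, 193, 147 and 126 CPM and at 185, 233, 259.6, 269 and 199.6 CPM. PexRAP-AKO 1 was once more the library that overlapped Control (log2 fold change 0.49, SE 0.14, edgeR adjusted p = 0.163). Uqcr11 was at 128, 160.4, 156, 135 and 109 CPM and at 165, 212, 167, 175 and 164 CPM. Its groups did not overlap, as was the case for 2.08% of all genes in the higher direction, and PexRAP-AKO 2 stood apart above the other 4 libraries of its group (log2 fold change 0.36, SE 0.11, edgeR adjusted p = 0.182).

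The other subunits of complex III had similar differences. Uqcrc2, a core protein on the matrix side, was at 221, 266, 251.9, 199 and 164 CPM in Control and at 236, 310.5, 318, 334 and 277 CPM in PexRAP-AKO (log2 fold change 0.42, SE 0.13, edgeR adjusted p = 0.190). Uqcrb, a subunit near the ubiquinone site, was at 47.5, 42.3, 46.6, 32.9 and 32.2 CPM and at 48.4, 58.6, 55.8, 63.9 and 42.1 CPM (log2 fold change 0.41, SE 0.14, edgeR adjusted p = 0.213). In both genes 4 of 5 PexRAP-AKO libraries lay above the highest Control. The redox subunits Uqcrfs1, the Rieske iron-sulfur protein, and Cyc1, cytochrome c1, had log2 fold changes of 0.43 and 0.42. Uqcrc1, the other core protein, had the smallest value of the complex, 0.30.

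Cytochrome c, the soluble electron carrier between complexes III and IV, is encoded by Cycs in somatic cells (chromosome 6, 50562563 to 50566538, GRCm38). Cycs was at 8.16, 11.4, 11.6, 6.75 and 6.91 CPM in Control and at 12.6, 12.6, 13.4, 14.2 and 10.2 CPM in PexRAP-AKO. PexRAP-AKO 6 fell within the Control range and the other 4 libraries lay above it. The log2 fold change was 0.47 (SE 0.17, edgeR adjusted p = 0.220). Its level is uncertain, because every 50-base word of its coding sequence also stands in transcripts of other genes.

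Complex IV, cytochrome c oxidase, had 16 members, of which 13 were tested, 9 stood higher at an unadjusted p under 0.05 and 0 lower, with a median log2 fold change of 0.33. Its mean log2 CPM for Control was 6.125 ± 0.199, and for PexRAP-AKO 6.44 ± 0.10 (SD, n = 5 each). The groups did not overlap for Cox6c, Cox6b1 and Cox8a, as was the case for 2.08% of all genes in the higher direction. Cox6c was at 198, 233, 201, 197 and 165 CPM in Control and at 237, 286, 251, 253 and 236 CPM in PexRAP-AKO (log2 fold change 0.34, SE 0.09, edgeR adjusted p = 0.143). Cox6b1, on the intermembrane face where cytochrome c docks (chromosome 7, 30616861 to 30626151, GRCm38), was at 215, 285, 275, 213 and 178 CPM and at 296, 337, 319, 371 and 292 CPM (log2 fold change 0.47, SE 0.13, edgeR adjusted p = 0.151). Cox8a, the ubiquitous form of subunit 8, was at 482, 481, 490.2, 432 and 382 CPM and at 537, 623, 582, 557 and 490.5 CPM. PexRAP-AKO 6 and Control 5 were thus almost level, and the separation of the groups rests on that small gap (log2 fold change 0.30, SE 0.09, edgeR adjusted p = 0.185). Cox7b was at 166, 209, 214, 154 and 112 CPM and at 203, 273, 266, 302 and 236 CPM, with PexRAP-AKO 1 among the Controls (log2 fold change 0.58, SE 0.17, edgeR adjusted p = 0.175). Cox7a2, the form of subunit 7a found in most tissues, was at 122, 162, 142, 138 and 92.9 CPM and at 175, 195, 155, 198 and 162 CPM (log2 fold change 0.43, SE 0.13, edgeR adjusted p = 0.185). Cox5b, a zinc-binding subunit on the matrix side, was at 90.8, 106, 123, 82.6 and 72.9 CPM and at 114.5, 143, 141, 136 and 108 CPM (log2 fold change 0.43, SE 0.14, edgeR adjusted p = 0.197). For Cox5b, PexRAP-AKO 1 and 6 lay below Control 5. Cox5a, Cox6a1 and Cox4i1 had log2 fold changes of 0.46, 0.33 and 0.26. Cox7c and Cox7a2l, at 0.24 and 0.13, missed the unadjusted threshold.

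The isoforms of complex IV known from particular tissues stood at low levels. Cox4i2, the lung and hypoxia form of subunit 4, was at 1.28, 1.96, 2.51, 2.28 and 2.41 CPM in Control and at 1.78, 1.62, 0.989, 1.89 and 2.05 CPM in PexRAP-AKO. It was 1 of 3 members with a negative log2 fold change (-0.33, SE 0.24, edgeR adjusted p = 0.532), and its groups overlapped. Cox6b2, a testis form, was at 0.340, 0.654, 0.904, 0.976 and 1.37 CPM and at 0.971, 1.04, 1.14, 0.809 and 0.706 CPM (log2 fold change 0.15, SE 0.31, edgeR adjusted p = 0.863), and the PexRAP-AKO libraries lay inside the Control range. Cox6a2, the heart and muscle form, did not pass the count filter. It was at 1.62, 0.0504, 0.854, 0.163 and 4.10 CPM (1 to 51 counts) in Control and at 0.324, 0.0650, 0.685, 0.629 and 0.565 CPM (1 to 9 counts) in PexRAP-AKO. The highest values were those of Control 8, 2 and 5, which were also the 3 highest Controls in muscle markers. Cox7b2 had 0 counts in every library and Cox8c had 1 count in all, in PexRAP-AKO 3. Both are testis forms. At this depth they were not detectable, and a count of 0 allows up to 3 counts per library.

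**Figure D4:**
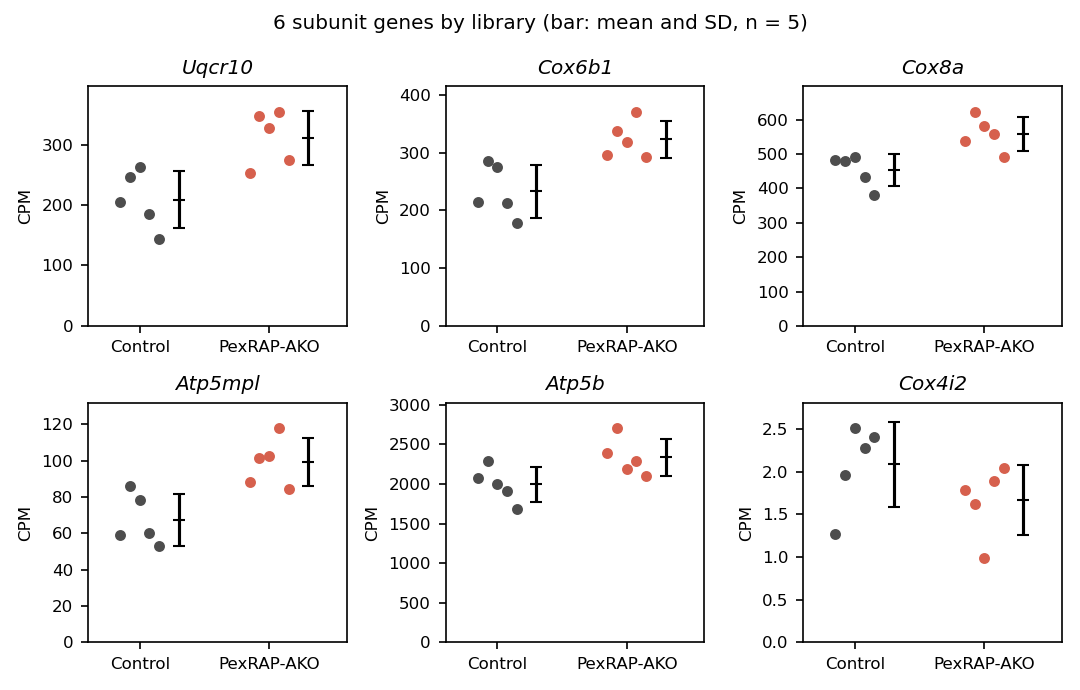
CPM (y axis, from 0) by group (x axis) for 6 genes, 1 point per library in replicate order, with the mean and SD (n = 5) beside each group. Cox6b1 and Cox8a do not overlap between groups, Uqcr10, Atp5mpl and Atp5b overlap at their edges, and Cox4i2, near 2 CPM, has a lower mean in PexRAP-AKO with wide overlap.

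Complex V, the ATP synthase, had 17 tested members, of which 12 stood higher at an unadjusted p under 0.05 and 0 lower, with a median log2 fold change of 0.29. Over the complex, Control had a mean log2 CPM of 6.06 ± 0.16 and PexRAP-AKO one of 6.33 ± 0.11 (SD, n = 5 each). In the catalytic F1 head, Atp5b, the beta subunit that carries the catalytic sites, was at 2072, 2293, 2004, 1917 and 1689 CPM in Control and at 2386, 2705, 2184, 2296 and 2107 CPM in PexRAP-AKO. It missed the unadjusted threshold (log2 fold change 0.23, SE 0.11, unadjusted p = 0.0539, edgeR adjusted p = 0.332). The other F1 subunits, Atp5a1 (alpha), Atp5c1 (gamma), Atp5d (delta) and Atp5e (epsilon), had log2 fold changes of 0.31, 0.22, 0.38 and 0.34, each at an unadjusted p under 0.05.

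The stalk and membrane parts of complex V held the members with the lowest p. Atp5mpl, a small membrane proteolipid of the synthase (chromosome 12, 111961375 to 111966977, GRCm38), was at 58.9, 86.0, 78.3, 60.3 and 53.0 CPM in Control and at 88.6, 102, 103, 118 and 84.6 CPM in PexRAP-AKO. PexRAP-AKO 6 lay just under Control 3, and the rest did not overlap (log2 fold change 0.55, SE 0.14, edgeR adjusted p = 0.140). Atp5j2, subunit f, was at 134, 171, 173, 124 and 113.8 CPM and at 172, 209, 204, 225 and 174 CPM (log2 fold change 0.46, SE 0.13, edgeR adjusted p = 0.160). Atp5o, which joins the F1 head to the peripheral stalk, was at 119.8, 151, 139.6, 119.6 and 92.1 CPM and at 136, 193, 179, 189.7 and 147 CPM, so that PexRAP-AKO 1 and 6 lay below Control 3 (log2 fold change 0.44, SE 0.14, edgeR adjusted p = 0.188). Other annotated genes overlap 47.9% of its exon bases: another entry named Atp5o on the same strand, and D430001F17Rik and Gm15976 on the other. The level of Atp5o is uncertain for this reason, and strand was not stated. Atp5k, subunit e, was at 122, 189, 172, 132 and 116 CPM and at 172, 242, 185, 206 and 185 CPM (log2 fold change 0.44, SE 0.15, edgeR adjusted p = 0.206). Atp5h, subunit d of the peripheral stalk, was at 49.7, 52.2, 47.5, 42.5 and 37.5 CPM and at 50.4, 59.2, 57.8, 58.7 and 49.3 CPM (log2 fold change 0.26, SE 0.09, edgeR adjusted p = 0.220). In Atp5k 2 and in Atp5h 3 of 5 PexRAP-AKO libraries lay above the highest Control. Atp5f1 and Atp5j, also of the peripheral stalk, had log2 fold changes of 0.29 and 0.21. Atp5l, subunit g, and Atp5s had 0.14 and 0.01.

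Subunit c, which forms the rotating ring, is encoded by 3 genes whose mature proteins are alike. Atp5g3 was at 232, 284, 214, 242 and 194 CPM in Control and at 312, 355, 243, 281 and 281 CPM in PexRAP-AKO (log2 fold change 0.34, SE 0.12, edgeR adjusted p = 0.218), with 2 of 5 libraries above the highest Control. Atp5g2 was at 2.13, 1.76, 1.81, 1.95 and 1.93 CPM and at 1.54, 1.495, 1.52, 1.62 and 1.70 CPM. Its groups did not overlap, as was the case for 1.33% of all genes in the lower direction, but the log2 fold change of -0.28 did not pass (SE 0.15, edgeR adjusted p = 0.496). Atp5g1 was at 2.13, 1.31, 1.71, 1.95 and 2.25 CPM and at 1.94, 2.15, 1.67, 1.71 and 1.62 CPM (log2 fold change -0.02, SE 0.19, edgeR adjusted p = 0.975).

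Within libraries, 3 isoform pairs were compared by their log2 ratio. The Atp5g2 to Atp5g3 ratio in Control was -6.82 ± 0.25 and that in PexRAP-AKO -7.415 ± 0.233, a difference of -0.60 (SD, n = 5 each, exact two-sided permutation p = 0.0159, adjusted p = 0.0476 over the 3 pairs). With PexRAP-AKO 1, 2, 5 or 6 left out, the adjusted p of the exact permutation test was 0.0714 and the difference lay between -0.64 and -0.51. The Cox4i2 to Cox4i1 ratio differed by -0.58 (exact permutation p = 0.0714, adjusted p = 0.107) and the Atp5g1 to Atp5g3 ratio by -0.36 (exact permutation p = 0.119, adjusted p = 0.119). Without Control 2 the first of these reached -0.74 (exact permutation, adjusted p = 0.0357), and without Control 3 the second reached -0.54 (exact permutation, adjusted p = 0.0119). The numerator of each ratio lies near 2 CPM, and nearly every coding word of Atp5g1 and Atp5g2 is shared with other genes, so the ratios are uncertain. Cox6a2 failed the count filter, so its ratio to Cox6a1 was not tested. The smallest p that 5 against 5 libraries allow is 0.00794.

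Levels of different members were compared per kilobase of the longest coding transcript. In Control the most abundant was Atp5b at 1041 ± 115 CPM per kb, followed by Cox8a at 824 ± 83.8, Cox6a1 at 716 ± 112 and Cox4i1 at 703 ± 99.9 (SD, n = 5 each). The last 3 were measured in the same libraries, and the differences between them were not tested. With merged exons as the length, Cox8a was the highest, at 732 CPM per kb, and Atp5b the third, at 471. Atp5g1 was the lowest tested member, at 0.396 CPM per kb of transcript. The proteins of each complex are present in fixed ratios, while these transcript values spanned orders of magnitude.

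Part of that span went with shared sequence. Other genes with the same sequence can take or withhold reads from a subunit gene, depending on how reads that match several places were counted, which is not given in the sources used here. At least 50% of the coding words of 50 bases were shared with another gene's transcripts in 9 members: Uqcrb (72.9%), Cox6c (53.6%), Cox7a2l (50.9%), Cox7c (81.9%), Atp5g1 (99.7%), Atp5h (67.1%), and Cycs, Atp5g2 and Atp5l with every word shared. Levels and fold changes of these 9 are uncertain. Among them 4 stood higher at an unadjusted p under 0.05, with a median log2 fold change of 0.24. Of the 35 tested members with less sharing, 30 stood higher and 34 were positive, with a median of 0.36. Cycs, Atp5l, Atp5g1 and Atp5g2, with nearly all words shared, stood between 0.396 and 4.74 CPM per kb. Atp5g3, with no word shared, stood at 323 CPM per kb. Atp5s, Cox4i2, Cox6a2 and Cox6b2 were low without shared words.

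**Figure D5:**
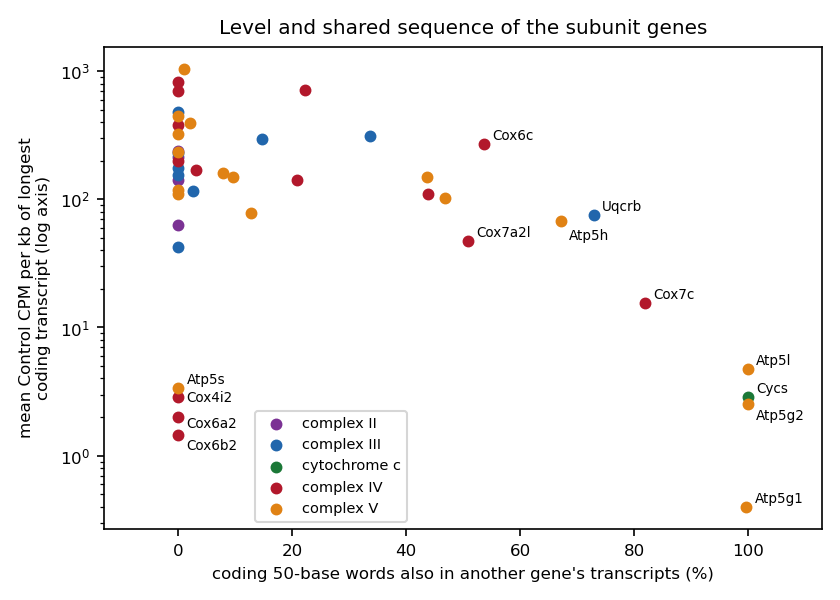
Mean Control CPM per kilobase of the longest coding transcript (y axis, log scale) against the share of each gene's coding 50-base words that also stand in another gene's transcripts (x axis, percent), coloured by complex. Members without a count in any Control library are not drawn, and Atp5l, Cycs, Atp5g2 and Atp5g1, near 100%, all lie under 5 CPM per kb.

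The subunits encoded by mitochondrial DNA were counted in part. mt-Cytb, the cytochrome b of complex III, was at 2372, 2309, 1845, 2211 and 2500.0 CPM in Control and at 1878, 3511, 3974, 3336 and 3171 CPM in PexRAP-AKO (log2 fold change 0.50, SE 0.17, edgeR adjusted p = 0.216). All but PexRAP-AKO 1 lay above the Controls. mt-Co1, the catalytic subunit of complex IV, had a log2 fold change of 0.31 (SE 0.15, edgeR adjusted p = 0.345). mt-Co2, mt-Co3, mt-Atp6 and mt-Atp8 were listed at 0 in every library, so nothing can be said of them.

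Genes that build or control the complexes were read from lists, with all tests over all genes. Of all genes tested, 49.8% were positive. At an unadjusted p under 0.05, 9.01% of them stood higher and 6.44% lower, to be read beside each count below. Of 36 assembly factors of complexes II to V, 33 were tested, 33 were positive and 18 stood higher at an unadjusted p under 0.05, with a median log2 fold change of 0.24, and none passed in edgeR. Pet100, a complex IV assembly factor, had 27.3 ± 3.32 CPM in Control against 37.0 ± 2.76 CPM in PexRAP-AKO (SD, n = 5 each, log2 fold change 0.44, edgeR adjusted p = 0.0866). Tmem70, which serves ATP synthase assembly, had 44.2 ± 5.73 CPM in Control against 59.5 ± 4.07 CPM in PexRAP-AKO (SD, n = 5 each, log2 fold change 0.43, edgeR adjusted p = 0.0890), and Cox16, a complex IV factor, had a log2 fold change of 0.38 (edgeR adjusted p = 0.132). The groups did not overlap for 5 of the 33 tested assembly factors, Pet100 and Tmem70 among them, as was the case for 2.08% of all genes in the higher direction. Of 11 regulators of mitochondrial genes, 3 stood higher and 1 lower at an unadjusted p under 0.05. They included Tfam, the mitochondrial DNA packaging and transcription factor (0.20, edgeR adjusted p = 0.152), the coactivator Ppargc1a (0.43, edgeR adjusted p = 0.225) and Yy1, which was the lower one (-0.14, edgeR adjusted p = 0.219). Esrra, an estrogen-related receptor, was the remaining higher one (0.33, edgeR adjusted p = 0.309). Nrf1 (-0.04, edgeR adjusted p = 0.791) and Gabpa (0.12, edgeR adjusted p = 0.528) were not among them. Of 13 genes chosen to follow mitochondrial mass, such as porins, import proteins and prohibitins, 13 were positive and 11 stood higher, with a median of 0.24. Phb (0.43, edgeR adjusted p = 0.107), Phb2 (0.29, edgeR adjusted p = 0.166) and Vdac3 (0.31, edgeR adjusted p = 0.175) had the lowest p. For complex I, 37 genes were taken by their Nduf symbols alone, Ndufa4 and Ndufa4l2 included, and their place in the complex was not checked. Of these 37, 36 were positive and 35 stood higher, with a median of 0.35, and Ndufa4l2 was the negative one (-0.33, edgeR adjusted p = 0.522). That median lay between those of complexes IV and III, and the difference between complexes was not tested.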

How the data were processed

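RNA-seq gave 5 Control and 5 PexRAP-AKO libraries of inguinal fat. The authors deposited raw read counts per gene, without normalization. The tools named in the submitters' processing notes are STAR 2.0.4b, featureCounts of the Subread package, and edgeR. Genome build, strand and the handling of reads with several matches were not given in the sources used here. Of 40724 rows, 1 was kept for each of 40501 identifiers, since 117 identifiers were repeated with the same counts. Gene models were from GENCODE M21 (GRCm38), where the 47 members were found by identifier.

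Counts were scaled by TMM and filtered (filterByExpr, minimum count 10, minimum total 15) in edgeR 4.0.16 under R 4.3.3. The quasi-likelihood F test with robust dispersion, no covariate and Benjamini-Hochberg adjustment over 14913 genes was used at 0.05. The script was tested on simulated counts. Standard errors are the log2 fold change over the square root of F. Log2 CPM used a prior count of 2. Single ratios were compared by exact permutation. Replicates of a group differed from each other (lowest chi-square per degree of freedom 7.73), so none was merged. Alternatives were other scalings and filters, DESeq2 1.42.0, limma 3.58.1 voom, marker scores as covariates, a replicate block and left-out libraries.

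Members, lists and tests were chosen with earlier results of these data known. Full values are given for up to 6 members per complex by smallest p and for tissue-specific isoforms, and up to 3 genes are named per other list. Atp5b, Atp5g1, Atp5g2 and Ucp1 fall outside this and were added with their values known. The same holds for Cox7a1, Ndufa4l2, Nrf1, Gabpa and Esrra. Sharing of 50-base words was computed on both strands of the annotated transcripts.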

Additional observations from a re-analysis of the deposited data

Results flagged for a closer look

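Of 98 gene and group combinations examined for a library far from the rest of its group, 2 stood out, where chance alone gives about 4.9. In PexRAP-AKO replicate 2, Uqcr11 had a log2 CPM of 7.73, against 7.36 to 7.45 in the other 4 libraries of the group. In the same library Cox6a1 had a log2 CPM of 9.24, against 8.90 to 8.99 in the others. PexRAP-AKO 2 was the highest library for 19 of the 44 tested members.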

How the results depend on the processing

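Of 1055 log2 fold changes of the 44 members over 24 alternatives, 26 changed sign, in 4 members near 0, and 9 passed the threshold, all in DESeq2. In the main test 34 members stood higher at an unadjusted p under 0.05, where 9.01% of all genes did. The same count, with the share of all genes in brackets, was 21 (4.29%) with library totals only. It was 14 (5.14%) with the brown score as a covariate and 16 (5.40%) with that score without Cox7a1, Cox8b and Ppargc1a, chosen after seeing the data. The replicate block gave 20 (5.58%), and leaving out the 2 Control libraries highest in muscle markers gave 15 (4.49%). Leaving out single libraries gave 23 (8.00%, without PexRAP-AKO 2) to 37 (9.07%, without Control 3). With library totals only, the median log2 fold change was 0.27 over the members and -0.073 over all genes. Members called numbered 9 with DESeq2 and 0 elsewhere. Genes called overall were 15, and 26 without the low-count filter, 439 with DESeq2, 7 with either brown score, 6 with the muscle score, 3 with the replicate block, 2 with those 6 libraries and no block (an alternative chosen after seeing the data), 5 without PexRAP-AKO 6 and Control 8, 1 without the 2 Controls highest in muscle markers, and 3 (without Control 8) to 58 (without PexRAP-AKO 1) leaving out single libraries. The cause was not tested. The block used the numbers shared by both groups; same-numbered libraries deviated together with correlations of -0.02, -0.08 and 0.36, and were not treated as pairs.

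With the brown score as a covariate the medians were 0.14 for complex II, 0.22 for III, 0.27 for cytochrome c, 0.22 for IV and 0.16 for V; over all alternatives they stayed positive. With members sharing under 50% of their words (chosen after seeing the data) they were 0.26, 0.43, 0.38 and 0.34 for complexes II, III, IV and V. Signs turned for Cox6b2 without Control 2 (-0.032), for Atp5l without PexRAP-AKO 6 and Control 8 (-0.022) and without the 2 muscle-rich Controls (-0.16), for Atp5g1 with voom (0.032), brown score (0.125, or 0.117 with those 3 genes taken out), muscle score (0.060), replicate block (0.11), no block (0.13), without PexRAP-AKO 6 and Control 8 (0.10) and without the 2 muscle-rich Controls (0.15), and for Atp5s with upper-quartile scaling (-0.0072), library totals (-0.063), no filter (-0.0013), muscle score (-0.0087), replicate block (-0.018) and no block (-0.0199). Leaving out single libraries, Atp5g1 ran from -0.13 to 0.052, Atp5s from -0.092 to 0.092 and Cox6b2 from -0.032 to 0.35. With single libraries left out, values of 4 other members moved by over 1.5 times. Atp5l ran from 0.012 (without Control 2) to 0.28 (without Control 7), and Sdhb was 0.18 without Control 8. Without PexRAP-AKO 3, Cox7a2l was 0.071 and Cox4i2 -0.19. Over all 24 alternatives, more members moved that far without a change of sign. Among them, Cox5a fell from 0.46 to 0.15, Cyc1 from 0.42 to 0.15, Sdhb from 0.28 to 0.079 and Cox7c from 0.24 to 0.062. The isoform ratios, with single libraries left out, ran from -0.70 to -0.51 for Atp5g2 to Atp5g3, from -0.74 to -0.43 for Cox4i2 to Cox4i1 and from -0.54 to -0.23 for Atp5g1 to Atp5g3. Low counts, near 2 CPM in Atp5g1, Atp5g2 and Cox4i2 and under 1 CPM on average in Cox6b2, limit these genes.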

Other observations

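Cox7a1 and Cox8b, the brown fat and muscle isoforms left out by the rule, stood beside the members as follows. Cox7a1 was at 23.6, 34.9, 72.8, 14.0 and 10.4 CPM in Control and at 20.8, 52.9, 81.3, 87.4 and 47.4 CPM in PexRAP-AKO (log2 fold change 0.87, SE 0.55, edgeR adjusted p = 0.492). Cox8b was at 171, 233, 280.5, 125 and 109 CPM and at 209, 335, 320.4, 430 and 288 CPM (log2 fold change 0.78, SE 0.27, edgeR adjusted p = 0.225). Both were lowest in Control 8, and neither passed the test. Cfd, the adipocyte protease adipsin, had the lowest p of the 8 white adipocyte markers, with a log2 fold change of -0.47 (edgeR adjusted p = 0.135). Its groups did not overlap, as was the case for 1.33% of all genes in the lower direction.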
